A study of Homo sapiens with 6 samples.

Results

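The genes described here are 41 genes of squamous cornification and epidermal differentiation, taken by their symbols from a list and found, 41 of 41, among the 57736 genes of the deposited expected count table. They were measured in AALE cells, a human bronchial basal epithelial line transformed with SV40 and hTERT and grown in a small airway epithelial medium. Stable pools had been selected after transduction with a lentiviral control vector (3 libraries) or with a lentiviral vector that overexpresses NRG1 (3 libraries), and polyA RNA was sequenced. NRG1 encodes neuregulin, a secreted growth factor that activates ERBB receptors, and the comparison asks how its overexpression changes these genes. Both groups carry SV40 and hTERT, both are pools of transduced cells, and no label states that a group's libraries are separate cultures. The p-values therefore speak only of the spread among these 6 libraries, and that spread may be technical.

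Cornification is the terminal program of stratified squamous epithelia such as the epidermis and the lining of the mouth and oesophagus. Cells leaving the basal layer switch keratins, make small proline-rich, involucrin and related proteins, and crosslink them beneath the plasma membrane with transglutaminases into a cornified envelope, to which barrier lipids are attached. The normal airway lining does not cornify, but airway basal cells can take up a squamous program in culture, after injury or when retinoids are lacking. The 41 genes were grouped by role into 15 envelope precursors and scaffolds, 5 suprabasal keratins, 7 enzymes and transporters, 5 protease inhibitors, 3 desmosome genes, and 6 secreted, calcium-binding or transport genes.

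A few promoters are shown because their genes gave the contrasts described further on: SPRR3 and SPRR1A were low in every NRG1 library, SPRR1B, the close copy of SPRR1A, was low in one of them, and SCEL was high in every one. Each line gives the 250 bases before the annotated start, 5′ to 3′ on the strand of the gene, from RefSeq on GRCh38.p14: chr1:153001499-153001748, chr1:152983831-152984080 and chr1:153030953-153031202 and chr13:77535456-77535705, all on the plus strand. Capitals mark TGAGTCA or, read on the other strand, TGACTCA, the sequence known to bind the AP-1 factors.
SPRR3: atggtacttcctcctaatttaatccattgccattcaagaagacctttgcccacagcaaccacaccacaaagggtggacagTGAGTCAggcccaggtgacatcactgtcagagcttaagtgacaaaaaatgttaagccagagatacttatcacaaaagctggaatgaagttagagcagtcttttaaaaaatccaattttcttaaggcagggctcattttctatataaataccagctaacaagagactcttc
SPRR1A: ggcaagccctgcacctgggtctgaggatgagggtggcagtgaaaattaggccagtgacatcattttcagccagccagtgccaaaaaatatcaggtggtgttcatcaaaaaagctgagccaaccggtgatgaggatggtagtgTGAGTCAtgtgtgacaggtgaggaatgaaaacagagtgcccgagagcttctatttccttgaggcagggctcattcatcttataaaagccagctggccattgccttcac
SPRR1B: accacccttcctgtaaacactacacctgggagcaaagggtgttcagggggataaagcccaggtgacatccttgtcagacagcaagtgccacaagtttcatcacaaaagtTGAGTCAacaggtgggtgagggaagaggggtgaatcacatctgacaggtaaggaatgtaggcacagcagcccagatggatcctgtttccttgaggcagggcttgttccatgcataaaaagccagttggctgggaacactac
SCEL: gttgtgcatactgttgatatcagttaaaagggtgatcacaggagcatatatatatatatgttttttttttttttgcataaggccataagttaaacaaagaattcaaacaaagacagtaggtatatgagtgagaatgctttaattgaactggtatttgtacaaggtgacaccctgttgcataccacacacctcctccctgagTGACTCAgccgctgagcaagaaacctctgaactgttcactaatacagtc
Each of these windows held the motif once, beginning 170 bases before the start in SPRR3, 108 in SPRR1A, 141 in SPRR1B and 49 in SCEL. A RefSeq window was found for 29 of the 41 genes, and the motif was in those of 11 genes, or 37.9% of genes. Counted by window, the motif was in 11 of their 31, against 1476 of all 35116 promoter windows of the same length, or 4.2%. The other genes holding it were SPRR2A, IVL, ECM1, SERPINB13, CASP14, KRTDAP and SBSN. CASP14 had 0 counts in all 6 libraries. The other genes with the motif had differing levels in the NRG1 libraries, and the match of letters describes the windows only.

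Library totals lay between 8612234 and 13207620 expected counts, lowest in NRG1 1, which also had the fewest genes with at least 1 count (21475, against 22682 to 23653 in the others). NRG1 itself separated the groups as the labels say, with 11.6, 7.87 and 12.3 CPM (read counts scaled to a common library size with TMM factors) in the controls and 6647, 3854 and 3781 CPM in the NRG1 libraries; values are given throughout in the order of replicates 1, 2 and 3. Basal cell markers were present (10 of 10 tested, with a sum of 6482 to 10847 CPM without NRG1 and 5083 to 6389 CPM with it), a sum made mostly of KRT5. Within it the basal keratin KRT14 stood at 1322, 591 and 965 CPM in the controls and 348, 87.5 and 93.5 CPM in the NRG1 libraries (adjusted p = 0.268 in edgeR and 0.000788 in DESeq2). NGFR had 18.3, 46.8 and 302 CPM and then 15.2, 15.7 and 13.6 CPM (0.335 and 0.138), and KRT15 had 16.2, 11.5 and 7.49 CPM and then 13.4, 80.4 and 79.4 CPM (0.328 and 0.00773). The other basal markers went in differing directions. DLK2 was higher without overlap, at 20.2, 17.8 and 11.5 CPM and then 22.6, 25.4 and 21.7 CPM. BCAM was above the control range in NRG1 2 and NRG1 3, and TP63 in NRG1 1 only. ITGA6 stayed inside it, and KRT5, ITGB4 and DST lay below it in NRG1 2 and NRG1 3. The part of the basal markers in the results was not tested. Airway secretory markers (7 genes, 0 tested) summed to 28.1 CPM in control 3, to 59.5 CPM in NRG1 3 and to at most 0.404 CPM in the other 4 libraries, with SCGB3A2 at 0 in all. Ciliated markers (3 of 7 tested) spanned 11 to 15.6 CPM without NRG1 and 6.06 to 30.4 CPM with it, fibroblast markers (2 of 6 tested) to 41.9 to 66.8 and 19.8 to 27.8 CPM, and leukocyte markers (1 of 5 tested, CD3E at 0) to 19.1 to 32.7 and 4.13 to 24.7 CPM, nearly all of it CD68. Fewer cells of a type and less RNA per cell cannot be told apart in bulk RNA.

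Among the cornification genes, KRT1, SPRR3, SPRR2E, SPRR1A, DSG1 and ECM1 lay below the whole control range in each of the 3 NRG1 libraries, and SCEL lay above it in each. A second set, among them A2ML1, KRT13, KRT4 and SPRR1B, was low in NRG1 1 but above the highest control in NRG1 2 and NRG1 3. Of the 41 genes, 40 had a count above 0 and 28 passed the low-count filter and were tested. No cornification gene passed edgeR's quasi-likelihood test at a Benjamini-Hochberg adjusted p under 0.05 (0 of 28, against 0.00648% of all 15421 genes tested, which is NRG1 alone). With an unadjusted p under 0.05 stood 7 on the low side and 3 on the high side, or 25.0% and 10.7% of the 28, against 6.72% and 5.07% of all genes tested. DESeq2 on the same counts called 4 as lower (SPRR3, SPRR2E, KRT1 and DSG1; 14.3% against 0.759% of all genes) and 1 as higher (SCEL; 3.57% against 0.597%). Groups did not overlap in 6 genes on the low side and 1 on the high side, 21.4% and 3.57%, against 10.2% and 9.36% of all genes tested. KRT1, DSG1 and SPRR2E are in each of these low-side counts and passed the filter only because they were high in the controls. SPRR3 is also in each of these counts, and SPRR1A in those by unadjusted p and by overlap. Both had 3 control libraries but only 2 NRG1 libraries over the filter's minimum. The low-side shares are thus in part a condition of being tested. The high-side share by unadjusted p holds CALML5, with 1 control library and 2 NRG1 libraries over the minimum, and carries a like condition.

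**Figure D1:**
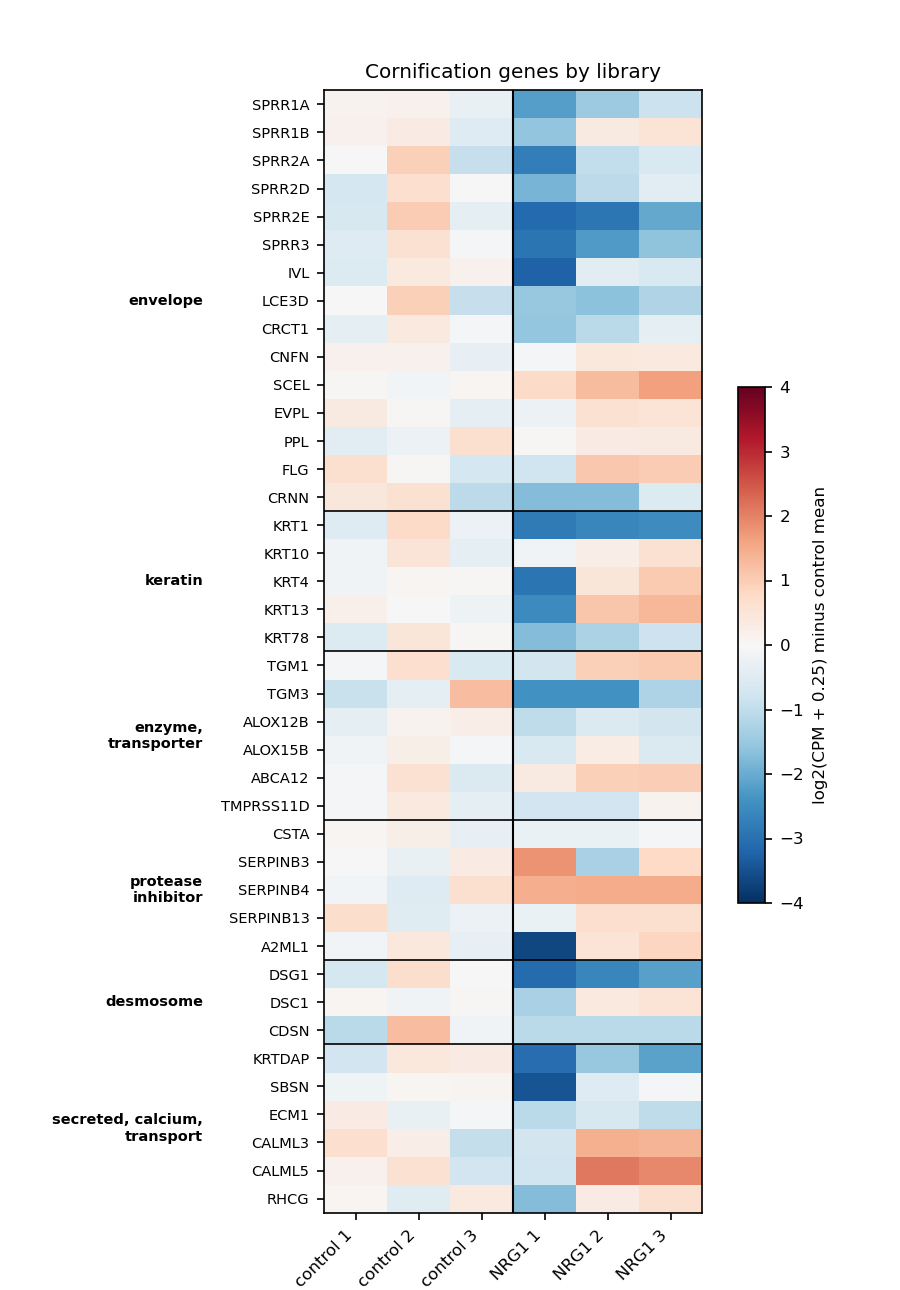
Each row is one of the 40 cornification genes with a count above 0 and each column a library; colour gives log2(CPM + 0.25) minus the gene's control mean, blue for lower and red for higher. The NRG1 1 column is blue over most rows, while in NRG1 2 and NRG1 3 blue is held to part of the rows, among them SPRR3, SPRR2E, KRT1, DSG1 and KRTDAP, and SCEL, FLG, KRT13, TGM1, CALML3 and CALML5 are red.

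The fitted log2 fold changes of the 28 genes ran from -4.07 to 1.76, with a median of 0.16, against a median of 0.00 over all genes tested. The filter bears on these figures: KRT1, DSG1 and SPRR2E had no NRG1 library over its minimum and entered only because they were high in the controls, so their difference was in part a condition of being tested. In all, 13 of the 28 entered through 3 control libraries while at least 1 NRG1 library lay under the minimum. CALML5 entered through 1 control library and 2 NRG1 libraries, NRG1 2 and NRG1 3, where it was high. Without the filter, the median over the 40 genes with a count was -0.24, against -0.02 over all 29827 genes then fitted, with most of the members it adds also lower in the NRG1 libraries. The median over the 28 was also below 0 in limma-trend (-0.12 and -0.21 with pseudocounts of 1 and 0.25), in limma-voom (-0.17) and without NRG1 3 (-0.29).

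The small proline-rich proteins are short envelope precursors joined by transglutaminases, and of the 6 measured here 3 were lower in every NRG1 library than in every control. SPRR3 (ENSG00000163209), typical of the lining of mouth and oesophagus, stood at 4.92, 11.1 and 6.79 CPM in the controls and 0.742, 1.31 and 2.17 CPM in the NRG1 libraries. Its highest NRG1 library thus lay below its lowest control, with means of 7.60 ± 3.17 and 1.41 ± 0.72 CPM (SD, n = 3 each) and a log2 fold change of -2.39 (SE 0.49; adjusted p = 0.229 in edgeR and 0.00199 in DESeq2). SPRR2E (ENSG00000203785) showed 1.85, 6.36 and 2.24 CPM in the controls against 0.124, 0.187 and 0.543 CPM, again without overlap, a log2 fold change of -3.51 (SE 0.78; adjusted p = 0.240 in edgeR and 0.00726 in DESeq2). Pooled over libraries, SPRR2E had 115 counts in control and 8 in NRG1, a ratio of 11.4 with a 95% interval of 5.60 to 27.1 for counting error only.

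SPRR1A (ENSG00000169474) was at 4.11, 4.24 and 3.01 CPM in the controls and at 0.618, 1.21 and 1.95 CPM with NRG1, and its log2 fold change was -1.55 (SE 0.43; adjusted p = 0.332 in edgeR and 0.151 in DESeq2). Its copy SPRR1B did not share that order, with 17.2, 19.3 and 10.5 CPM in the controls and 4.94, 19.3 and 22.5 CPM in the NRG1 libraries. SPRR1B was therefore below the controls in NRG1 1, just above the highest control in NRG1 2 and above it in NRG1 3, and its log2 fold change was 0.01 (SE 0.49). SPRR2A read 2.26, 4.64 and 1.08 CPM in the controls and 0.124, 1.03 and 1.41 CPM with NRG1, and SPRR2D 2.82, 7.67 and 4.79 CPM against 1.11, 2.15 and 3.37 CPM. In both, NRG1 3 lay inside the control range and the other NRG1 libraries below it.

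Reads of these genes can fit more than one copy. Of the distinct 50-base stretches in GENCODE 29 transcripts of SPRR2A, 32.7% also occurred in another gene, as did 23.4% of those of SPRR2E, 19.3% of SPRR2D, 11.3% of SPRR1A and 4.38% of SPRR1B. SERPINB3 and SERPINB4 shared 23.3% and 20.1%, mostly with each other, and LCE3D shared 14%, so that counts of these genes depend on how the estimate divided shared reads. SPRR3, KRT1, DSG1 and SCEL shared 0%.

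**Figure D2:**
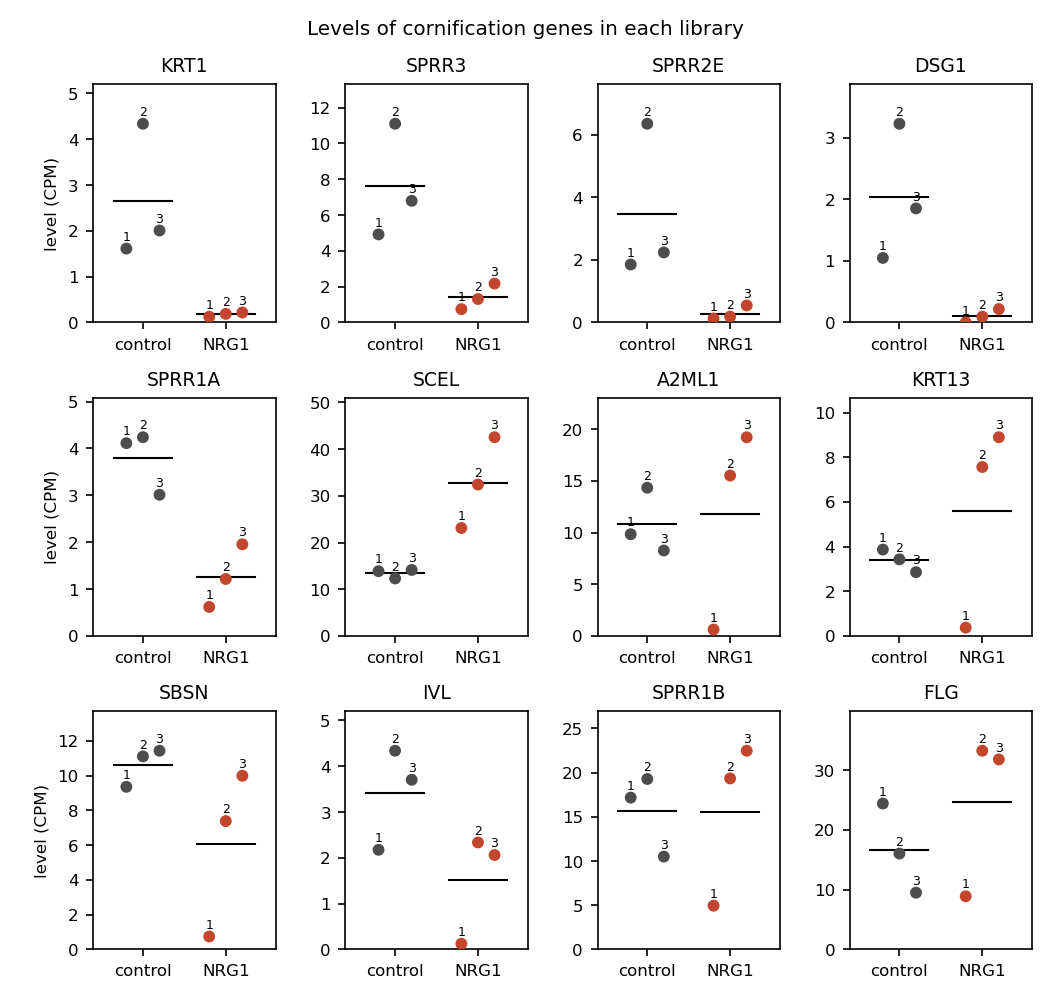
Points give the level in CPM of each library, numbered by replicate, for 12 cornification genes, and bars give the group mean; each panel has its own axis from 0. KRT1, SPRR3, SPRR2E, DSG1 and SPRR1A are low in all 3 NRG1 libraries and SCEL high, while in the 6 other panels NRG1 1 lies far below NRG1 2 and NRG1 3.

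The remaining envelope genes did not follow the SPRR3 order as a group. SCEL (ENSG00000136155), sciellin, an envelope precursor of stratified epithelia, was at 13.9, 12.3 and 14.1 CPM in the controls and 23.1, 32.4 and 42.6 CPM in the NRG1 libraries. No NRG1 library reached down to a control, with means of 13.4 ± 0.981 and 32.7 ± 9.72 CPM (SD, n = 3 each) and a log2 fold change of 1.28 (SE 0.26; adjusted p = 0.229 in edgeR and 0.00231 in DESeq2). IVL, involucrin, on which envelope assembly starts, was at 2.18, 4.34 and 3.71 CPM in the controls and at 0.124, 2.34 and 2.06 CPM with NRG1. NRG1 1 stood farthest from the rest, with 1 expected count of IVL against 25 and 19 in NRG1 2 and NRG1 3, and NRG1 3 was just below the lowest control.

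The plakin scaffolds, which tie the envelope to keratin filaments, were abundant. PPL, periplakin, was at 238, 267 and 498 CPM in the controls and at 327, 397 and 404 CPM in the NRG1 libraries, all 3 of them inside the control range that control 3 set at its top. EVPL, envoplakin, was at 81.7, 65.7 and 49.5 CPM and at 54.6, 97.2 and 93.0 CPM, the last 2 above the controls. FLG, profilaggrin, whose product bundles keratin in the outer epidermis, was at 24.4, 16.0 and 9.50 CPM in the controls and 8.90, 33.3 and 31.8 CPM in the NRG1 libraries. CNFN, cornifelin, differed little, between 1.08 and 1.61 CPM in the controls and 1.36 and 1.96 CPM with NRG1.

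Of the 4 suprabasal keratins tested, DESeq2 called KRT1 as lower and none of the others. KRT1 (ENSG00000167768), the type II keratin that marks the first suprabasal layer of the epidermis, was at 1.61, 4.34 and 2.01 CPM in the controls and 0.124, 0.187 and 0.217 CPM in the NRG1 libraries. Every NRG1 library was under every control, at a log2 fold change of -3.77 (SE 0.65; adjusted p = 0.129 in edgeR and 0.00593 in DESeq2). These levels rest on few counts, 89 in the controls together and 5 in the NRG1 libraries together, a ratio of 14.1 with a 95% interval of 5.84 to 44.6 for counting error only. KRT10, its usual type I partner, was far more abundant, at 46.3, 72.6 and 38.4 CPM in the controls and 45.7, 61.0 and 77.4 CPM with NRG1, a log2 fold change of 0.23 (SE 0.28; adjusted p = 0.752 in edgeR).

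The mucosal pair KRT4 and KRT13, which form filaments in non-cornified squamous linings, differed widely among the NRG1 libraries. KRT13 (ENSG00000171401) was at 3.87, 3.43 and 2.86 CPM in the controls and at 0.371, 7.57 and 8.90 CPM in the NRG1 libraries. KRT4 was at 2.34, 2.72 and 2.70 CPM and at 0.124, 3.74 and 5.64 CPM. In both genes NRG1 1 lay below every control and NRG1 2 and NRG1 3 above every control, and the mean of the latter 2 was 37.9 times the level of NRG1 1 for KRT4 and 22.2 times for KRT13. The fold change of KRT13 over all 6 libraries was 0.76 on the log2 scale (SE 0.69; adjusted p = 0.661 in edgeR).

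Of the enzymes and transporters, 2 of 7 were tested, and both were above the controls in NRG1 2 and NRG1 3. TGM1, the membrane-bound transglutaminase that crosslinks the envelope, was at 28.3, 46.5 and 18.9 CPM in the controls and 17.4, 56.7 and 60.2 CPM in the NRG1 libraries, a log2 fold change of 0.53 (SE 0.48; adjusted p = 0.656 in edgeR). ABCA12, which loads barrier lipids into lamellar granules, was at 71.1, 111 and 49.1 CPM and at 93.6, 142 and 144 CPM, with a fitted log2 fold change of 0.72 (SE 0.31; adjusted p = 0.418 in edgeR). NRG1 1 was inside the control range for ABCA12 and below it for TGM1. The 5 others held few counts: TGM3, a second transglutaminase, had 6, 8 and 38 expected counts in the controls and 0, 0 and 3 in the NRG1 libraries. Control 3, the control with airway secretory transcripts, was the high one for TGM3, and the part of those transcripts in this was not tested. The lipoxygenase ALOX12B had 11.1, 14.2 and 20.2 expected counts against 3.70, 7.89 and 5.70, and ALOX15B 12, 13 and 13 against 5, 15 and 6. CASP14, the caspase of the cornified layer, had 0 counts in all 6 libraries, which allows up to 0.232 to 0.371 CPM per library (3 counts, counting error only).

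Protease inhibitors restrain the proteases of shedding squamous cells, and none of the 4 tested differed between the groups in every library. A2ML1 (ENSG00000166535), an alpha-2-macroglobulin-like inhibitor, was at 9.83, 14.3 and 8.26 CPM in the controls and at 0.618, 15.5 and 19.2 CPM in the NRG1 libraries. NRG1 1 had 5 expected counts of A2ML1, NRG1 2 had 166 and NRG1 3 had 177, so that the mean of the latter 2 was 28.1 times its level. CSTA, cystatin A, was at 56.7, 63.1 and 41.8 CPM and at 44.4, 44.1 and 51.5 CPM, all within the control range (log2 fold change -0.21, SE 0.20; adjusted p = 0.683 in edgeR). SERPINB13 was at 38.9, 16.8 and 20.2 CPM and at 19.5, 37.6 and 37.1 CPM, likewise inside it (0.31 on the log2 scale, SE 0.37; adjusted p = 0.746). SERPINB3, a squamous cell antigen, did not follow A2ML1: it was at 2.18, 1.72 and 2.78 CPM in the controls and highest in NRG1 1, with 8.28, 0.747 and 4.02 CPM (0.89 on the log2 scale, SE 0.69; adjusted p = 0.610). Its near copy SERPINB4 was not tested and had 1.13, 0 and 3.74 expected counts in the controls against 5.51, 8.34 and 6.76.

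Desmosomal members were scarce in all libraries. DSG1 (ENSG00000134760), the desmoglein of the upper epidermis, was at 1.05, 3.23 and 1.85 CPM in the controls and at 0, 0.0934 and 0.217 CPM in the NRG1 libraries. With 69 counts in the controls and 3 in the NRG1 libraries the pooled ratio was 18.3, with a 95% interval of 5.99 to 90.7 for counting error only. The groups did not overlap, at a log2 fold change of -4.07 (SE 0.81; adjusted p = 0.170 in edgeR and 0.0239 in DESeq2). DSC1, a desmocollin of the same layers, had 5, 3 and 5 expected counts and then 0, 6 and 6. CDSN, corneodesmosin, had 0, 10.2 and 3.45 in the controls and 0 in each NRG1 library, and a count of 0 in 1 library allows up to 3 counts.

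Of the secreted, calcium-binding and transport genes, 5 of 6 were tested. ECM1, a secreted glycoprotein of skin, was at 24.4, 15.7 and 18.7 CPM in the controls and at 9.02, 12.2 and 9.34 CPM with NRG1, without overlap and at a log2 fold change of -0.94 (SE 0.27; adjusted p = 0.332 in edgeR and 0.0811 in DESeq2). SBSN, suprabasin, was at 9.35, 11.1 and 11.4 CPM and at 0.742, 7.38 and 9.99 CPM, and RHCG, an ammonia transporter of squamous linings, at 1.93, 1.21 and 2.47 CPM and 0.371, 2.34 and 2.93 CPM. NRG1 1 was the lowest library for both. The calmodulin-like proteins of differentiating epithelium stood high in 2 libraries: CALML5 was at 0.967, 1.41 and 0.386 CPM and then 0.371, 4.48 and 3.91 CPM (1.76 on the log2 scale, SE 0.76; adjusted p = 0.421 in edgeR). CALML3 was at 5.96, 4.44 and 1.78 CPM in the controls and at 2.10, 10.1 and 9.66 CPM with NRG1 (0.88 on the log2 scale, SE 0.60; adjusted p = 0.569). In NRG1 2 and NRG1 3 both were above the highest control, and in NRG1 1 they were near the lowest.

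The 13 untested members were mostly lower with NRG1. Together they held 78.2, 120 and 134 expected counts in the controls and 15.2, 45.2 and 41.5 in the NRG1 libraries, or 6.29, 12.1 and 10.3 CPM against 1.98, 4.20 and 4.56 CPM. Levels did not overlap between groups in 6 of them: LCE3D, KRT78, TGM3, ALOX12B and KRTDAP were lower in the NRG1 libraries and SERPINB4 higher. Among the 5566 untested genes with summed counts in the range of these members (8 to 74), 6.32% were lower and 6.81% higher without overlap. KRTDAP, a secreted protein of early keratinocyte differentiation, had 12, 25 and 30 expected counts in the controls and 0, 5 and 2 in the NRG1 libraries. LCE3D, a late envelope protein, had 10.01, 17.9 and 3.5 against 1, 1 and 2, and the keratin KRT78 4, 9 and 8 against 0, 1 and 2. The fused-type protein CRNN had 11, 10 and 2 against 0, 0 and 3, and CRCT1, a short cysteine-rich protein, 4, 7 and 6 against 0, 1 and 3. TMPRSS11D, an airway trypsin-like protease, had at most 3 counts in any library.

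The NRG1 libraries differed widely among themselves in these genes. Relative to the control mean, the median log2 level of the 28 tested genes was -0.01, 0.26 and -0.27 in the controls and -1.32, 0.33 and 0.55 in the NRG1 libraries; over all genes tested it was within 0.012 of 0 in every library. NRG1 1 was the lowest of the 6 libraries in 18 of the 28 genes, or 64.3%, against 22.6% of all genes tested. It was below the control range in 18, also 64.3%, against 30.1% of all genes tested. It alone among NRG1 libraries was below the control range in 8 genes (SPRR1B, FLG, KRT4, KRT13, TGM1, A2ML1, CALML5 and RHCG), 28.6% against 15.3% of all genes tested. NRG1 2 and NRG1 3 were above the control range in 12 and 15 of the 28 genes, 42.9% and 53.6%, against 28.8% and 28.1% of all genes tested. These shares compare 1 library with others and carry no test. The total count of NRG1 1 was the lowest, and its part in this was not tested. Airway secretory markers, at 0 CPM in NRG1 2 and 59.5 CPM in NRG1 3, differed between these libraries too, and their part was not tested.

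Without control 3 and NRG1 1, a comparison of 2 against 2 libraries chosen with earlier results known, edgeR called 9 of the 28 genes. SPRR1A, SPRR2E, SPRR3, KRT1 and DSG1 were lower (17.9%, against 4.77% of all genes tested), with log2 fold changes from -3.76 to -1.41 and adjusted p from 0.0288 to 0.0478. Each had all 3 control libraries but not all 3 NRG1 libraries over the filter's minimum, which was applied to the 6 libraries. Their difference, and so this share, was in part a condition of being tested. SCEL, PPL, KRT13 and CALML5 were higher (14.3%, against 5.04%). CALML5 passed the filter with 1 control library and 2 NRG1 libraries over its minimum, so its difference was in part a condition of being tested. SCEL then rose by 1.51 on the log2 scale (SE 0.18; adjusted p = 0.00542), PPL by 0.67 (SE 0.11; adjusted p = 0.0133), KRT13 by 1.16 (SE 0.25; adjusted p = 0.0285) and CALML5 by 1.84 (SE 0.36; adjusted p = 0.0218). Control 3 and NRG1 1 were dropped because they stood apart, which narrows the groups, so these p-values come out too small. Over all 6 libraries PPL had a log2 fold change of 0.17 (SE 0.28; adjusted p = 0.817 in edgeR), and it was -0.02 without control 1.

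**Figure D3:**
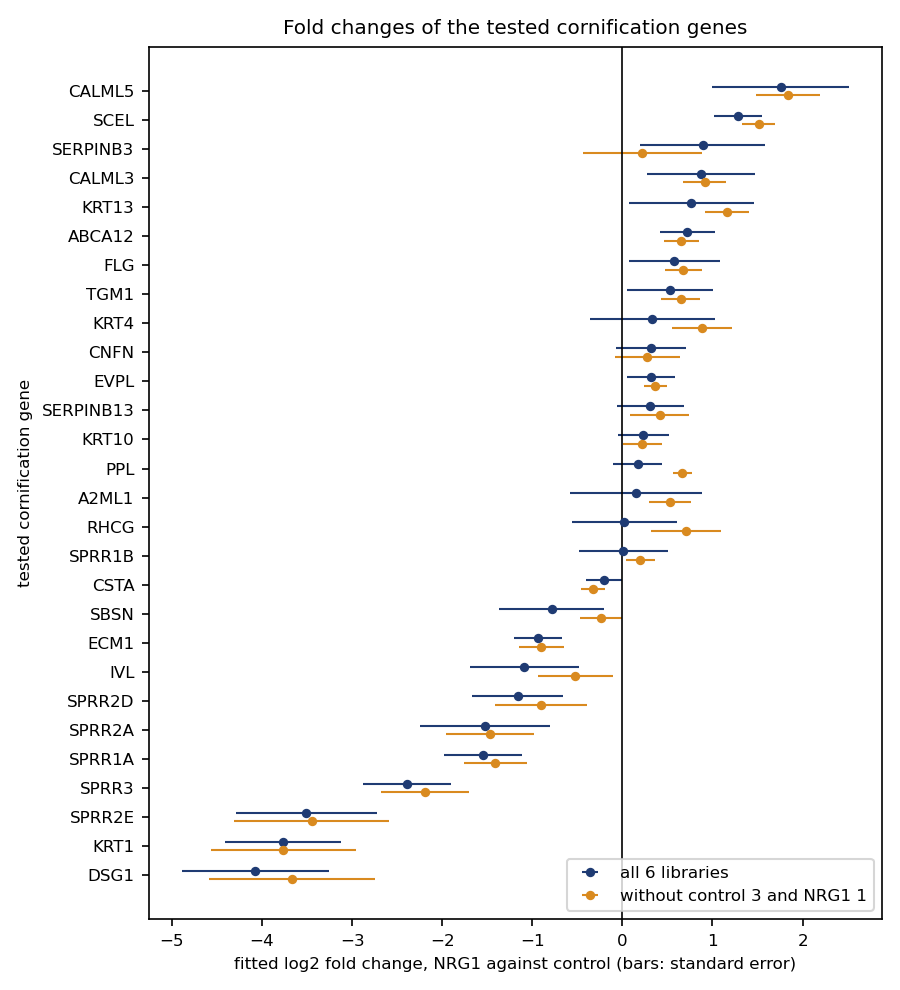
Points give the fitted log2 fold change of NRG1 against control and bars its standard error for the 28 tested cornification genes, over all 6 libraries in blue and without control 3 and NRG1 1 in orange. DSG1, KRT1, SPRR2E, SPRR3 and SPRR1A lie well below 0 in both, SCEL lies above 0 in both, and the bars of KRT13, PPL and A2ML1 are shorter without the 2 libraries.

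The wider program was followed in 82 further genes, of which 49 were tested. None passed edgeR over all genes or DESeq2 (0 of 49 in each), an unadjusted p under 0.05 was reached by 6 on the high side and 3 on the low side (12.2% and 6.12%, against 5.07% and 6.72% of all genes tested). Without control 3 and NRG1 1, edgeR called 11 higher and 2 lower (22.4% and 4.08%, against 5.04% and 4.77%), so that the low side was near the background in both. Among 22 other envelope and keratin genes, 6 were tested. TCHH, trichohyalin, a fused-type protein like FLG, was at 3.06, 2.62 and 1.39 CPM in the controls and 4.20, 7.38 and 7.60 CPM in the NRG1 libraries, without overlap. LCE1B, a late envelope protein, was at 0.0806, 1.01 and 0.0772 CPM and then 0.742, 1.78 and 2.39 CPM. CST6, cystatin M/E, which keeps proteases of cornification in check, was the opposite, at 2.10, 1.51 and 1.93 CPM in the controls and 0.742, 0.841 and 0.651 CPM with NRG1. HRNR, hornerin, named after its values were seen, was at 1.85, 1.51 and 1.93 CPM and at 1.61, 5.33 and 4.13 CPM, with NRG1 2 and NRG1 3 above the controls. LORICRIN, the main envelope protein of the epidermis, had 1 count in control 3 and 0 in the other 5 libraries.

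The other desmosomal genes listed were far more abundant than DSG1. Of 10, all tested, 9 had a fold change above 0, against 50% of all genes tested, and 2 were higher at an unadjusted p under 0.05 (20%, against 5.07%). DSG2 was at 314, 349 and 281 CPM in the controls and 479, 426 and 435 CPM with NRG1, above the controls in all 3 libraries (log2 fold change 0.50, SE 0.14; adjusted p = 0.332 in edgeR). DSG3, the desmoglein of basal and spinous layers, was at 208, 297 and 165 CPM and at 285, 471 and 503 CPM (0.91, SE 0.28; adjusted p = 0.342), and PKP1, plakophilin 1, at 466, 440 and 239 CPM and 363, 710 and 675 CPM (0.61, SE 0.32; adjusted p = 0.468). Among 22 other enzymes and inhibitors, 10 of them tested, PRSS8, the membrane protease prostasin, was at 64.7, 69.3 and 59.3 CPM and at 68.5, 105 and 90.2 CPM. SERPINB7 was at 15.7, 12.0 and 9.73 CPM and at 11.7, 4.58 and 5.64 CPM, and SPINK5, an inhibitor of epidermal kallikreins, at 12.0, 9.79 and 5.87 CPM and 3.34, 7.29 and 6.84 CPM. Of 12 surface and secreted genes of upper layers, 7 were tested. The gap junction gene GJB2 was at 60.6, 37.7 and 60.1 CPM in the controls and 33.1, 31.7 and 31.9 CPM with NRG1, without overlap (-0.71 on the log2 scale, SE 0.22; adjusted p = 0.351). DMKN, dermokine, was at 44.7, 53.1 and 36.2 CPM and at 44.7, 71.8 and 76.5 CPM, and LYPD3 at 28.1, 19.2 and 42.2 CPM and 4.70, 23.3 and 22.4 CPM.

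Transcription factors and other regulators of squamous differentiation, KDF1 among the latter, showed the low NRG1 1 library again. Of 16, all tested, NRG1 1 was below the control range in 11, and it alone among the NRG1 libraries in 9, or 56.2%, against 15.3% of all genes tested. KLF4, a factor of barrier formation, was below every control in every NRG1 library, with 128, 133 and 163 CPM in the controls and 117, 96.6 and 100 CPM with NRG1 (log2 fold change -0.43, SE 0.16; adjusted p = 0.387 in edgeR). OVOL1 was at 11.7, 16.2 and 69.6 CPM and at 3.46, 15.1 and 13.7 CPM (-1.58, SE 0.74; adjusted p = 0.442), and KDF1 at 23.6, 31.8 and 42.4 CPM and 22.7, 26.6 and 25.2 CPM. Control 3 was the highest library for these 3 genes. The following were named after their values were seen. ZNF750, which drives late differentiation, was at 6.21, 13.7 and 48.0 CPM in the controls and 3.58, 33.2 and 34.0 CPM with NRG1. GRHL3, a factor of envelope and transglutaminase genes, was at 10.2, 11.4 and 25.8 CPM and at 4.20, 15.9 and 19.0 CPM. CEBPA was at 6.29, 8.78 and 6.41 CPM and at 1.98, 9.25 and 6.19 CPM. NRG1 1 was the lowest of the 6 libraries for all 3. TP63, the factor of basal identity, was not lowest in NRG1 1, with 226, 158 and 164 CPM in the controls and 228, 169 and 186 CPM in the NRG1 libraries.

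**Figure D4:**
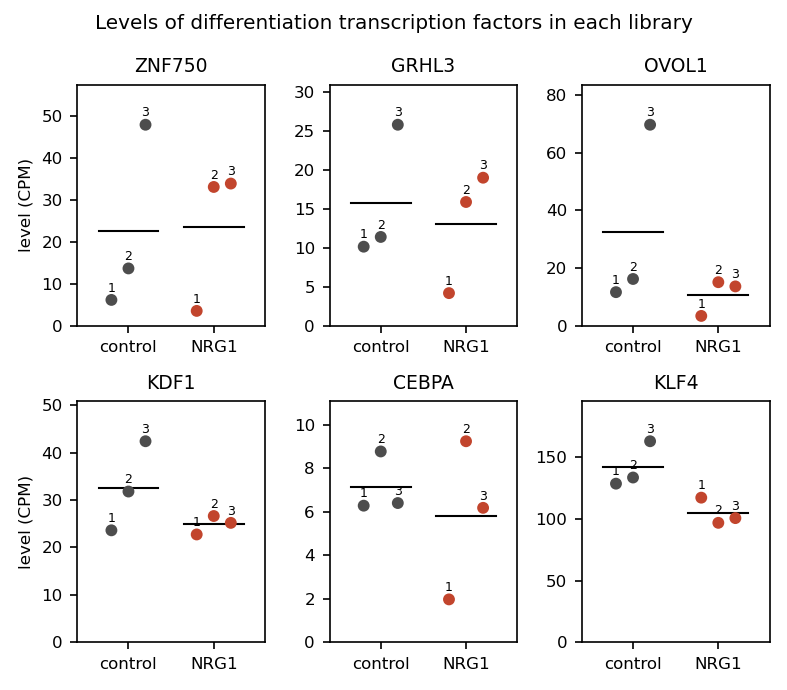
Points give the level in CPM of each library, numbered by replicate, and bars give the group mean. The 6 genes are transcription factors and, with KDF1, another regulator of squamous differentiation. Each panel starts at 0. NRG1 1 is the lowest library in ZNF750, GRHL3, OVOL1, KDF1 and CEBPA, control 3 is the highest in ZNF750, GRHL3, OVOL1, KDF1 and KLF4, and KLF4 is lower in the 3 NRG1 libraries than in the controls.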

How the data were processed

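Gene expression was measured in 3 control and 3 NRG1 libraries of AALE cells. The deposited expected counts are estimates, not whole numbers and not normalized; per the submitters' processing notes the tools were RSEM 1.3.0, MultiQC 0.9, STAR 2.5.3a and FastQC 0.11.3 and the build hg19, with no roles stated. Which annotation was used is not stated there. RSEM divides reads that fit several genes among them. A second deposited table holds log2 values of 14759 genes, 25 of the 41 members among them; these equalled log2 CPM of the expected counts (TMM, prior count 0.25) to within 4.97e-14 and were used for that check only.

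Expected counts were rounded to whole numbers. The test was edgeR 4.0.16 under R 4.3.3 (TMM factors, filterByExpr, quasi-likelihood test without a separate dispersion estimate, no covariate, Benjamini-Hochberg adjusted p under 0.05 over all 15421 genes tested). The filter asks for about 10 counts, 0.992 CPM, in at least 3 libraries. SE is the fold change divided by the root of the test statistic. A gene at 1 CPM rests on about 10 counts. The levels shown as differences use log2(CPM + 0.25). Symbols were matched by identifier for 51959 of 57736 genes. Alternatives were DESeq2 1.42.0, limma 3.58.1 (trend and voom), other scalings and filters, a replicate block and left-out libraries; DESeq2 left 15 adjusted p undefined. Promoter windows are RefSeq's on GRCh38.p14, printed with that build's coordinates and not joined to the hg19 counts.

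The members and lists were chosen with earlier results of these data known. The rule for named genes allowed every member with its levels, and fold change and test for up to 3 per role group with the smallest unadjusted p, for members called by DESeq2 or without control 3 and NRG1 1, and up to 3 genes of each further list. SPRR1B, whose fold change is also given, falls outside it and was chosen after its values were seen. The tests given for KRT14, NGFR, KRT15, DSG2, DSG3, PKP1, GJB2, KLF4 and OVOL1 fall outside it too. So does the naming of LORICRIN, TP63, HRNR, ZNF750, GRHL3 and CEBPA from the further lists.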

Additional observations from a re-analysis of the deposited data

How the results depend on the processing

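Over 16 alternatives, the 17 members named by rule gave 272 fold changes, of which 255 kept direction and side of the threshold, 14 kept direction and passed the threshold, and 3 turned. Direction turned for KRT13 in limma-trend on log2(CPM + 0.25) (-0.028) and limma-voom without rounding (-0.035), and for PPL without control 1 (-0.022 as the lowest of the values that leave out 1 library, 0.57 as the highest).

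Members called rose from 0 to 5 in DESeq2 and 9 without control 3 and NRG1 1, and stayed at 0 with any 1 library left out and in the other settings. Members at an unadjusted p under 0.05 were 10 of 28 and became 18 of 40 without the filter and 18 of 28 without both libraries (8 to 15 with 1 library left out). Members whose groups do not overlap were 7 of 28 and became 13 of 40 without the filter and 22 of 28 without both libraries (8 to 18 with 1 left out, highest without NRG1 1). Groups of fewer libraries separate more readily for any gene. For neither count is the share over all genes given in these settings, so their rise is not a result about the members. The members' median log2 fold change of 0.16 became -0.238 without the filter, -0.117 and -0.205 in limma-trend with pseudocounts of 1 and 0.25 and -0.171 in limma-voom; with 1 library left out it ran from -0.293, without NRG1 3, to 0.412, so its sign depends on these settings. Genes called over all genes were 1 in edgeR and became 209 in DESeq2, 21 without the filter, 2 in each limma fit and 2 with the replicate block, 1512 without both libraries and 1 to 37 with 1 left out, highest without NRG1 1. The replicate block called 0 members; same-numbered libraries did not deviate together (correlations 0.02, 0.13 and -0.08), so the numbers were not taken as pairs. With about 10 counts at 1 CPM, levels of KRT1, DSG1, SPRR2E and the untested members are limited by counting error.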
